A study of Drosophila melanogaster with 19 samples.

Results

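Of 38 listed genes of the fly's myoblast and muscle programme, 29 had at least 1 probe set that the platform annotation assigns to that gene and no other, among 11982 genes named in this way on the array. These 29 genes were covered by 39 probe sets. For the 7 genes with several (vg, kirre, sls, TpnC73F, Mlp60A, Prm and Zasp66), the one with the highest mean signal on the 15 arrays that hold no zeros was used. No such probe set was named for Mef2, stumps, sd, mbc, Mhc, Act57B, Tm1, wupA and TpnC47D, which were not analysed here. The rule that listed the genes used no measured value, but the list was drawn up with earlier results of these data known.

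RNA came from notums of Drosophila melanogaster pupae at 16 h after puparium formation, with 8 to 12 notums pooled per replicate and 500 ng of total RNA labelled for an Affymetrix 3′ array. Every group, controls included, carried the sca-Gal4 driver and tub-Gal80ts, a temperature-sensitive Gal80 that holds Gal4 inactive in the cold. Animals were raised at 18 °C, and 6 h before they were dissected they went to 29 °C, which releases Gal4. The groups differed in the transgene. UAS-Ac had 2 arrays, UAS-Sens 3, UAS-Ase 3, UAS-E(spl)m3-HLH (called m3) 3, UAS-Ac with UAS-Sens (Ac+Sens) 3, UAS-Ase with UAS-E(spl)m3-HLH (Ase+m3) 2, and the control UAS-GFPnls (GFP) 3. Achaete (Ac) and Asense (Ase) are proneural activators, Senseless (Sens) is a zinc finger factor that works with such activators, and E(spl)m3-HLH is a repressor that acts in Notch signalling. The labels place each transgene under sca regulatory sequences, and the sources used here do not say whether any cell of the muscle lineage carried its product. The protocol calls the replicates biological and says nothing more of their origin, so p-values measure the spread between these arrays.

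In the fly, the myoblasts of the adult thorax lie under the notum epithelium of the wing imaginal disc, where FGF signalling and the factors Twist, Zfh1 and Vestigial keep them growing and unfused. After the start of metamorphosis they fuse into the flight muscles. Immunoglobulin-type receptors bring the partners together, Kirre and Roughest chiefly on the founder side and Sticks and stones and Hibris on the fusion-competent side. Sarcomere genes (actins, myosins, the troponin and tropomyosin complex, titin-like filaments and Z disc proteins) are switched on as fibres differentiate. A notum preparation can hold epidermis together with the muscle lineage beneath it. In such bulk RNA, fewer cells of a type and less RNA per cell cannot be told apart.

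On replicate 3 of Sens, Ase, m3 and Ac+Sens, between 60.3% and 60.6% of probe sets are listed at exactly 0, and these zeros were treated as missing. TpnC41C, TpnC4, Prm and fln are among the probe sets at 0 there, so these 4 genes have 15 arrays, and the other 25 have all 19. The array labelled Sens replicate 1 went against its label. The sens probe set read 7.38 there, against 10.76 and 10.75 on the other Sens arrays and 7.15 to 7.55 in GFP, and the sc probe set read 10.63 there and 10.37 and 10.42 in Ac. Ase+m3 replicate 2 stood apart from all other arrays, with a median Spearman correlation of 0.890 to them, against 0.964 to 0.987 for the rest. Of the notum prepattern markers, 7 of 8 were measured and none was listed at 0 on any array. Among them pnr lay between 8.62 and 9.28. Levels are RMA log2 signals of 1 probe set each, and were compared between arrays, never between genes.

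**Figure D1:**
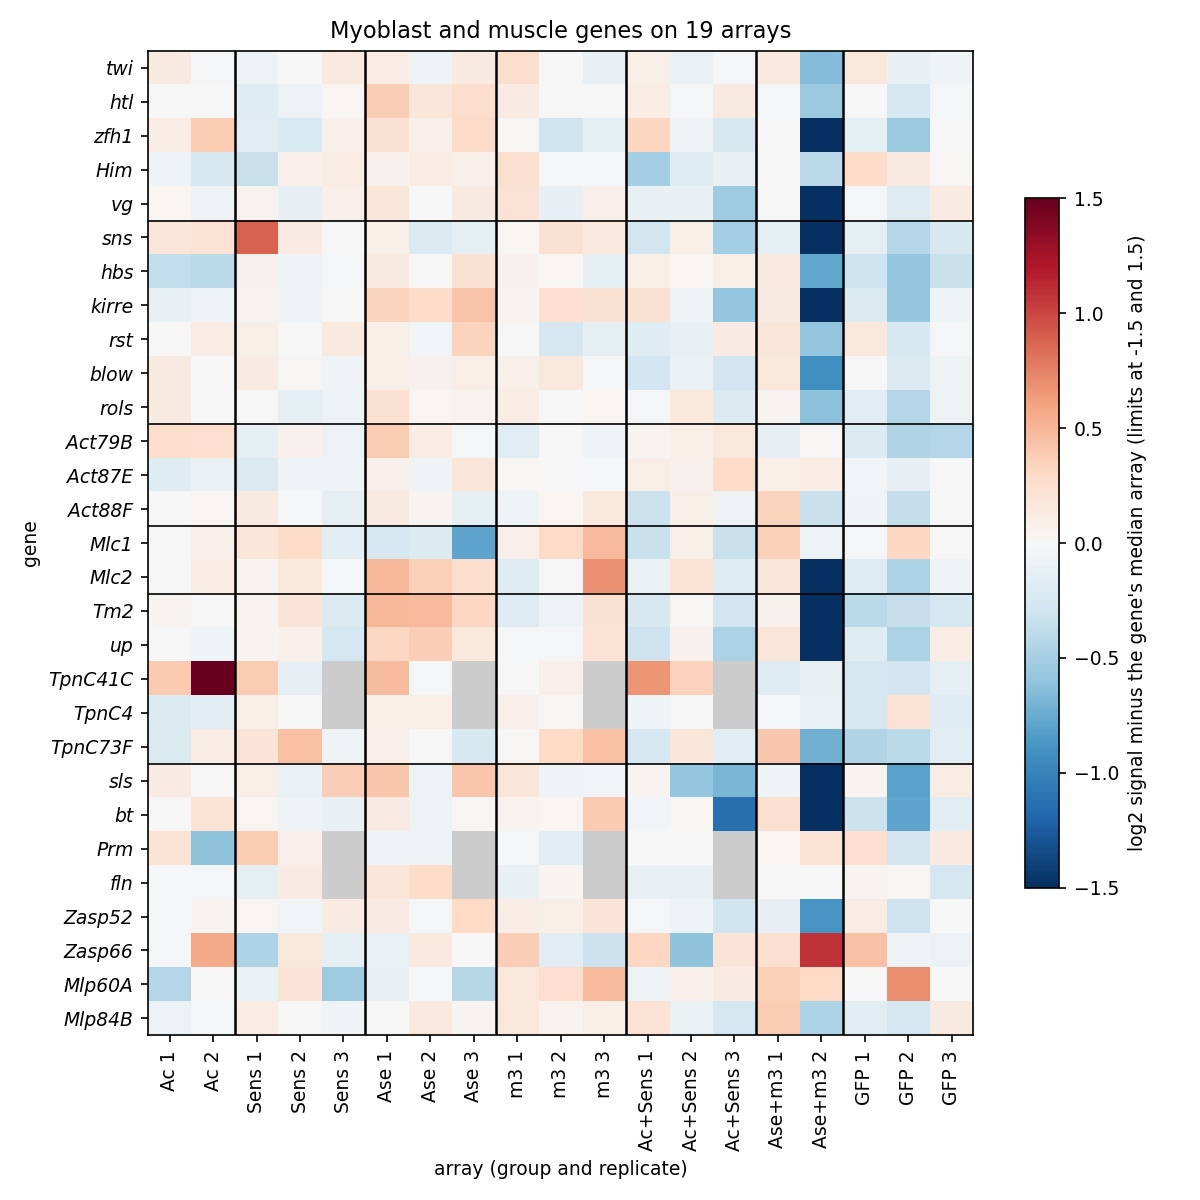
Log2 signal of each of the 29 genes (rows, ordered by role) on each of the 19 arrays (columns, group and replicate), as the difference from that gene's median array. Red is above and blue below the median, the colour limits are −1.5 and 1.5, and grey cells are listed at 0. Ase+m3 replicate 2 is the column with the most blue, with 17 of 29 genes more than 0.5 below their median array.

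Against GFP, a muscle actin, Act79B, was the only one of the 29 genes to pass the test, in Ac and in Ase. A moderated F test over the 6 contrasts with GFP called 1 of 29 genes, Act79B (adjusted p = 0.0418), where it called 3.62% of all 18769 probe sets. Here called means an adjusted p under 0.05 in limma after Benjamini-Hochberg adjustment over the whole array. Unadjusted F p-values under 0.05 were found for 9 of the 29 genes, against 26.4% of all probe sets. Against GFP, 1 of the 29 genes was called in Ac (0.218% of all probe sets were called) and 1 in Ase (1.24%). None was called in Sens (0.277%), m3 (0.341%), Ac+Sens (0.773%) or Ase+m3 (2.31%) in limma. The unadjusted p was under 0.05 for 2 genes in Ac (4.99% of all probe sets), 3 in Sens (9.39%), 7 in Ase (14.6%), 3 in m3 (11.9%), 5 in Ac+Sens (12.5%) and 5 in Ase+m3 (24.5%). With the array labelled Sens replicate 1 left out, Sens still had 0 calls.

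Most of the genes had small differences from GFP above 0 in the 4 single-transgene groups. Differences above 0 were found for 23 of 29 genes in Ac, 24 in Sens, 24 in Ase, 25 in m3, 16 in Ac+Sens and 13 in Ase+m3. Over all probe sets, 57.8%, 63.1%, 67.5%, 61.9%, 51.7% and 61.5% were above 0 in the same comparisons. The median log2 difference of the 29 genes was 0.15 in Ac (0.03 over all probe sets), 0.13 in Sens (0.05), 0.20 in Ase (0.08), 0.18 in m3 (0.05), 0.04 in Ac+Sens (0.01) and −0.16 in Ase+m3 (0.07). Over only the probe sets above 0 on all arrays, the medians were 0.02, 0.06, 0.11, 0.09, −0.02 and −0.05 in the same order. For the 25 genes among them they were 0.16, 0.13, 0.20, 0.20, 0.04 and −0.24. With the trend along gene span removed, the medians of Ac, Sens, Ase and m3 were 0.09, 0.04, 0.08 and 0.09. They were 0.10, 0.08, 0.13 and 0.09 with quantile normalization, and 0.04, 0.06, 0.25 and 0.18 with array weights. All of these comparisons share the same 3 GFP arrays. GFP replicate 2 read low for these genes, with a median of 0.28 below their median array, and 5 genes over 0.5 below it. Without that array the medians were 0.04 in Ac, 0.04 in Sens, 0.17 in Ase, 0.11 in m3, −0.03 in Ac+Sens and −0.26 in Ase+m3. Without the array labelled Sens replicate 1, the median in Sens was 0.10.

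The intervals bound what these arrays could have missed. The 95% confidence interval of the difference from GFP lay within 1 log2 unit on either side of 0 for 23 of 29 genes in Ac, 25 in Sens, 20 in Ase, 23 in m3, 27 in Ac+Sens and 20 in Ase+m3. The standard error of a difference from GFP ran from 0.08 to 0.46.

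**Figure D2:**
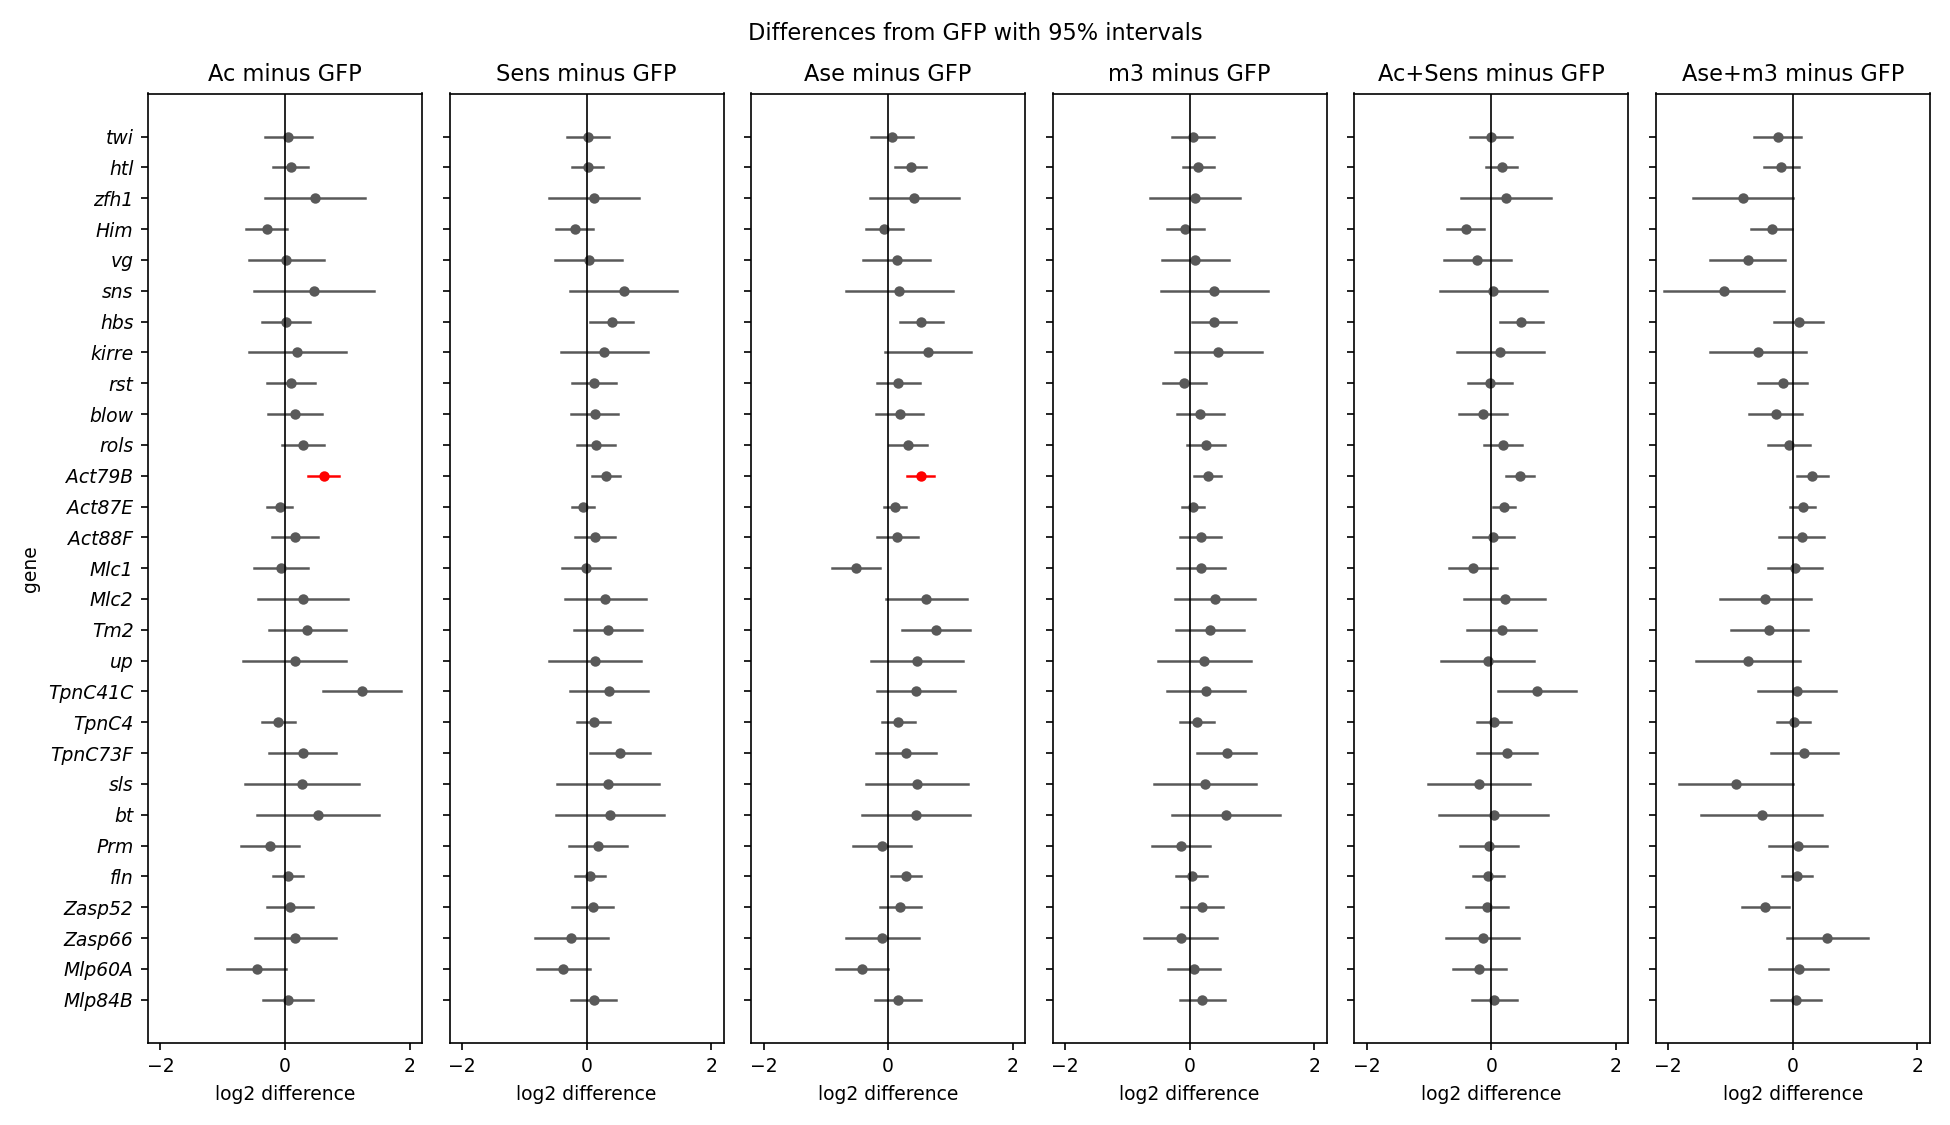
Log2 difference from GFP (points) with its 95% confidence interval (lines) for each of the 29 genes, in a panel for each of the 6 transgene groups, on a common axis. Red marks an adjusted p under 0.05, which is Act79B in Ac and in Ase; the Ase+m3 panel has the most genes left of 0, 16 of 29.

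Among the muscle actins, Act79B, which encodes an actin of the tubular muscles, was higher in Ac and in Ase than in GFP. It read 8.50 and 8.48 in Ac, 8.09, 8.30 and 8.14 in Sens, 8.62, 8.35 and 8.20 in Ase, 8.06, 8.23 and 8.17 in m3, 8.28, 8.33 and 8.40 in Ac+Sens, 8.10 and 8.25 in Ase+m3, and 8.03, 7.78 and 7.79 in GFP. All 16 transgene arrays, at 8.06 to 8.62, lay above all 3 GFP arrays, at 7.78 to 8.03. No other of the 29 genes showed this, 0.725% of all probe sets did, and 0 of the 29 lay below GFP on all 16 arrays (0.112% of all probe sets).

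Act79B rose in Ac by 0.62 on the log2 scale (1.54-fold, SE 0.12, 95% confidence interval 0.37 to 0.87, adjusted p = 0.0394). In Ase it rose by 0.52 (1.44-fold, SE 0.11, interval 0.30 to 0.74, adjusted p = 0.0219). The difference was 0.47 in Ac+Sens (adjusted p = 0.0534), 0.31 in Sens (0.319), 0.29 in m3 (0.286) and 0.31 in Ase+m3 (0.135), none of which passed. The comparisons of the double groups with their single factors called no actin: Act79B differed by −0.15 between Ac+Sens and Ac and by −0.21 between Ase+m3 and Ase. The call in Ac was lost when any of 12 single arrays was left out, with adjusted p from 0.0539 to 0.425. These were GFP replicates 2 and 3, Ac 1 and 2, Sens 2 and 3, Ase 2, m3 1, 2 and 3, and Ac+Sens 1 and 2. The call in Ase was lost without GFP replicate 2 (0.108), GFP replicate 3 (0.0753), Ase replicate 1 (0.139) or Ase replicate 2 (0.0685). Over the 26 alternative settings the difference ran from 0.55 to 0.70 in Ac and from 0.41 to 0.62 in Ase. Leaving out arrays could not turn its sign, as all Ac and Ase arrays lay above all GFP arrays.

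The other 2 actins differed less. Act88F, the actin of the flight muscles, ran from 10.78 to 11.47 over all arrays, with group means within 0.18 of each other (11.16 in Ac, 11.13 in Sens, 11.14 in Ase, 11.17 in m3, 11.03 in Ac+Sens and 11.14 in Ase+m3, with 11.07, 10.78 and 11.14 on the GFP arrays), and its lowest and highest arrays were GFP replicate 2 and Ase+m3 replicate 1. Act87E, best known as an actin of larval muscle, averaged 10.49 ± 0.12 in Ac+Sens (SD, n = 3) and 10.28 ± 0.06 in GFP (n = 3). Its 3 Ac+Sens arrays lay above every GFP array, with a difference of 0.20 that did not pass (adjusted p = 0.324). Actin genes are close to identical in their coding sequence, so these probe sets can share signal, and the proteins were not compared here.

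**Figure D3:**
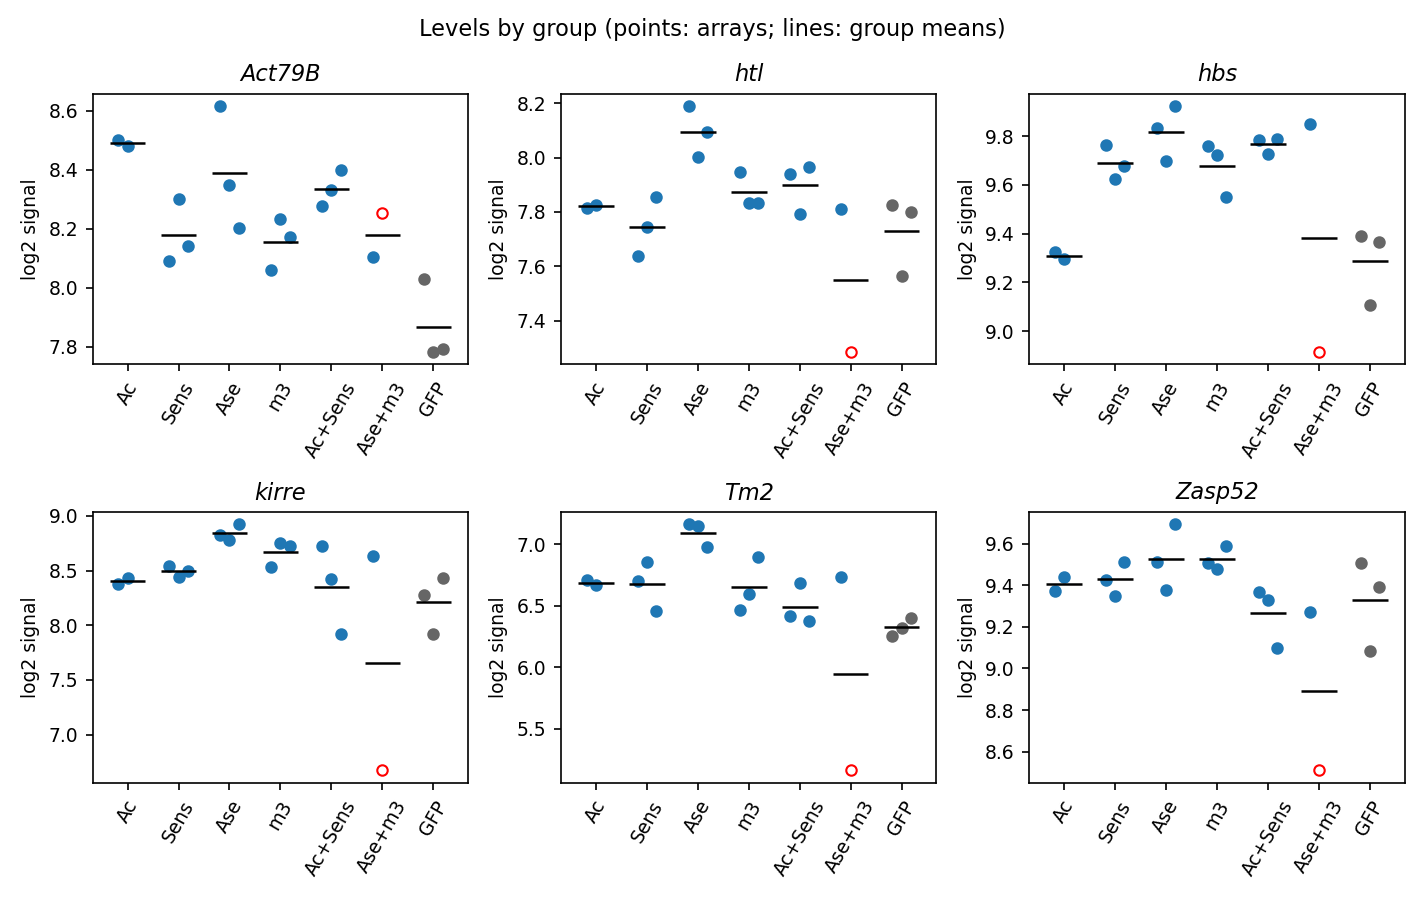
Log2 signal on every array (points) and the group mean (lines) for Act79B, htl, hbs, kirre, Tm2 and Zasp52, in the 6 transgene groups and GFP (grey), each panel with its own axis. The open red point is Ase+m3 replicate 2, the lowest array of all in 5 of the 6 panels; for Act79B it read 8.25, above all 3 GFP arrays.

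None of the 5 measured myoblast regulators was called against GFP in any group. All 5 had a difference below 0 in Ase+m3 against GFP. For twi, htl, zfh1 and vg, Ase+m3 replicate 1 lay within the range of the GFP arrays and replicate 2 below it. For Him both Ase+m3 arrays lay below every GFP array. Htl, an FGF receptor of the myoblast lineage, read 8.19, 8.00 and 8.09 in Ase, 7.81 and 7.28 in Ase+m3, and 7.82, 7.56 and 7.80 in GFP. Its 3 Ase arrays lay above every GFP and Ase+m3 array. In the remaining groups htl averaged 7.82 in Ac, 7.75 in Sens, 7.87 in m3 and 7.90 in Ac+Sens. The difference of Ase from GFP was 0.37 (SE 0.12, adjusted p = 0.146) and did not pass.

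Zfh1, a zinc finger repressor that holds myoblasts undifferentiated, read 8.80 and 9.06 in Ac, 8.51, 8.45 and 8.76 in Sens, 8.91, 8.76 and 8.97 in Ase, 8.69, 8.38 and 8.54 in m3 and 8.68 and 6.62 in Ase+m3, against 8.55, 8.13 and 8.68 in GFP. It averaged 8.69 ± 0.28 in Ac+Sens (SD, n = 3). Its arrays in Ac and in Ase all lay above the GFP arrays, with differences of 0.48 and 0.42 that did not pass (adjusted p = 0.9996 and 0.612). Vg, the flight muscle selector cofactor, read 9.69 and 8.17 in Ase+m3, against 9.66, 9.49 and 9.80 in GFP. It averaged 9.67 in Ac, 9.68 in Sens, 9.79 in Ase, 9.74 in m3 and 9.43 in Ac+Sens. For both genes the first Ase+m3 array lay inside or near the range of the GFP arrays and the second far below every other array. Twi, the bHLH factor that marks myoblasts, ran from 8.31 to 8.69 on the 18 other arrays and read 7.78 on Ase+m3 replicate 2. Group means of twi other than Ase+m3 lay within 8.41 to 8.48.

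Him, an inhibitor of the muscle factor Mef2, was the regulator with readings below GFP in several groups. It read 10.20 and 10.01 in Ac, 9.75, 10.08 and 10.14 in Ac+Sens and 10.26 and 9.86 in Ase+m3, against 10.53, 10.39 and 10.28 in GFP. In these 3 groups every array lay below every GFP array, which held in the lower direction for 8.33%, 10.7% and 7.99% of all probe sets. The differences were −0.29 in Ac, −0.41 in Ac+Sens and −0.34 in Ase+m3 (adjusted p = 0.9996, 0.215 and 0.194), and none passed. In Sens, Ase and m3 the averages were 10.21, 10.34 and 10.33.

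Of the fusion genes, hbs read above GFP in 4 groups, without passing the test. Hbs, the fusion receptor Hibris, read 9.77, 9.63 and 9.68 in Sens, 9.83, 9.70 and 9.93 in Ase, 9.76, 9.72 and 9.55 in m3 and 9.79, 9.73 and 9.79 in Ac+Sens, against 9.39, 9.11 and 9.36 in GFP. In each of these 4 groups all arrays lay above all GFP arrays. Ac differed from them, with 9.32 and 9.29, inside the GFP range. Ase+m3 read 9.85 and 8.91, one above and one below every GFP array. The differences from GFP were 0.40 in Sens, 0.53 in Ase, 0.39 in m3 and 0.48 in Ac+Sens (adjusted p = 0.437, 0.132, 0.360 and 0.212), and 0.02 in Ac. The difference between Ac+Sens and Ac, 0.46 (SE 0.18), had an adjusted p of 0.403.

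Kirre, the founder receptor, read 8.83, 8.78 and 8.92 in Ase, against 8.28, 7.92 and 8.43 in GFP, with no overlap. Its other probe set gave a smaller difference of the same sign (0.13, against 0.64 for the one used), at low signals of 3.35 to 3.94. It averaged 8.40 in Ac, 8.49 in Sens, 8.67 in m3, 8.35 in Ac+Sens and 7.65 in Ase+m3. In m3 the 2 probe sets had opposite signs, at 0.46 and −0.17. Sns, the fusion-competent receptor, read 7.98, 7.22 and 7.10 in Sens, 7.28 and 7.32 in Ac and 7.12, 7.33 and 7.24 in m3, against 6.97, 6.66 and 6.86 in GFP. It averaged 7.01 in Ase, 6.87 in Ac+Sens and 5.73 in Ase+m3. Its highest value of all came from the array labelled Sens replicate 1. Rst, the founder receptor paralogous to kirre, stayed between 10.79 and 11.37 on the 18 arrays other than Ase+m3 replicate 2, where it was 10.45. Its group means were 11.10 in Ac, 11.12 in Sens, 11.17 in Ase, 10.91 in m3, 10.98 in Ac+Sens and 10.84 in Ase+m3, and the GFP arrays read 11.20, 10.80 and 11.01. The rst transcription unit lies within the span of kirre in the RefSeq annotation (release 6). Blow and rols, both needed for the fusion reaction, ran from 9.04 to 9.51 and from 8.60 to 9.27 on those 18 arrays.

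Genes whose arrays all lay above those of GFP were 9 of 29 in Ac, or 31.0% (11.1% of all probe sets), 9 in Sens, or 31.0% (18.9%), 13 in Ase, or 44.8% (27.7%), and 10 in m3, or 34.5% (21.3%). In the double groups they were 4 in Ac+Sens, or 13.8% (16.1%), and 2 in Ase+m3, or 6.90% (24.3%). Genes whose arrays all lay below were 2 in Ac (8.33%), 0 in Sens (8.03%), 2 in Ase (8.58%), 0 in m3 (10.5%), 1 in Ac+Sens (10.7%) and 1 in Ase+m3 (7.99%). The shares in the higher direction were thus above those of all probe sets in the single-transgene groups and below them in the double groups. Those in the lower direction were below them in all 6 groups, with the same 3 GFP arrays in each.

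Among the thin filament genes, Tm2 and up had their highest group means in Ase, without passing the test against GFP. Tm2, a tropomyosin, read 6.71 and 6.66 in Ac, 6.70, 6.86 and 6.46 in Sens, 7.16, 7.15 and 6.97 in Ase, 6.47, 6.59 and 6.90 in m3, 6.42, 6.68 and 6.37 in Ac+Sens and 6.73 and 5.16 in Ase+m3, against 6.26, 6.32 and 6.40 in GFP. All 8 arrays of Ac, Sens and Ase, and those of m3, lay above the GFP arrays. The difference of Ase from GFP was 0.77 (1.70-fold, SE 0.26, adjusted p = 0.169). Up, troponin T, averaged 6.89 in Ase and 6.43 in GFP, with no overlap between the arrays, and read 6.79 and 4.63 in Ase+m3.

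The troponin C genes gave unlike differences, none of which passed. TpnC73F averaged 8.72 ± 0.26 in Sens, 8.77 ± 0.22 in m3 and 8.18 ± 0.15 in GFP (SD, n = 3 each), with differences of 0.54 and 0.59 (adjusted p = 0.460 and 0.309). It averaged 8.47 in Ac, 8.46 in Ase, 8.44 in Ac+Sens and 8.36 in Ase+m3. TpnC41C, another troponin C gene, read 4.24 and 5.45 in Ac and 4.51 and 4.18 on the 2 Ac+Sens arrays with a value, against 3.58, 3.56 and 3.70 in GFP. The Ac difference of 1.23 (SE 0.29, adjusted p = 0.227) rested on arrays that lay far apart. TpnC41C averaged 3.97 in Sens, 4.06 in Ase, 3.88 in m3 and 3.69 in Ase+m3, over 2 arrays each. TpnC4, the flight muscle isoform of stretch activation, ran only from 2.14 to 2.59 over its 15 arrays. Troponin C genes form a close family, so their probe sets can share signal.

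The 2 myosin light chains differed from GFP in opposite directions in Ase, and neither difference passed. Mlc1, the alkali light chain, read 8.67, 8.72 and 8.14 in Ase, against 8.91, 9.24 and 8.92 in GFP, so every Ase array lay below every GFP array. The difference was −0.51 (SE 0.18, adjusted p = 0.190). Mlc1 averaged 8.96 in Ac, 9.02 in Sens, 9.20 in m3, 8.73 in Ac+Sens and 9.06 in Ase+m3. Mlc2, the regulatory light chain, read 8.02, 7.89 and 7.79 in Ase, 7.71 and 5.99 in Ase+m3, and 7.34, 7.06 and 7.46 in GFP. Its difference in Ase was 0.61 (adjusted p = 0.372). Mlc2 averaged 7.58 in Ac, 7.59 in Sens, 7.69 in m3 and 7.51 in Ac+Sens.

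Filament and Z disc genes showed no called difference from GFP. Sls, the titin-like protein Sallimus, averaged 9.49 in Ac, 9.55 in Sens, 9.68 in Ase, 9.46 in m3, 9.02 in Ac+Sens, 8.30 in Ase+m3 and 9.21 in GFP, where its 3 arrays ran from 8.62 to 9.54. Bt, the titin-like projectin, averaged 8.30 in m3 and 7.72 in GFP. Zasp52, a Z disc PDZ and LIM protein, ran from 9.09 to 9.69 on the 18 arrays other than Ase+m3 replicate 2. It read 9.37 and 9.44 in Ac, 9.43, 9.35 and 9.51 in Sens and 9.37, 9.33 and 9.10 in Ac+Sens, against 9.51, 9.09 and 9.39 in GFP. Mlp60A, a muscle LIM protein, read 7.15, 7.25 and 6.85 in Ase, against 7.27, 7.97 and 7.26 in GFP, and its 3 probe sets gave differences from −0.42 to 0.03 there. It averaged 7.04 in Ac, 7.12 in Sens, 7.57 in m3, 7.31 in Ac+Sens and 7.60 in Ase+m3. Mlp84B, its relative, had group means within 0.20 of each other. Zasp66 averaged 6.83 in Ac, 6.42 in Sens, 6.57 in Ase, 6.52 in m3, 6.52 in Ac+Sens, 7.22 in Ase+m3 and 6.66 in GFP, and had differences of both signs among its 3 probe sets in Ac, Sens, Ase and Ase+m3. In Sens, Ase and Ase+m3 the sign that differed was that of a probe set with low signals, at 2.65 to 3.10. Prm, paramyosin, ran from 4.43 to 5.41 and fln, the flight muscle thick filament protein flightin, from 2.74 to 3.27 on their 15 arrays. Prm averaged 4.84 in Ac, 5.26 in Sens, 4.97 in Ase, 4.94 in m3, 5.03 in Ac+Sens, 5.15 in Ase+m3 and 5.07 in GFP.

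Among the genes with several probe sets, the sign of the difference from GFP differed between probe sets in at least 1 group for all 7. For vg, the probe sets gave 0.14 and −0.00222 in Ase, and −0.22 and 0.02 in Ac+Sens. For sls the probe sets of Ac ran from −0.24 to 0.28, with 2 of 3 above 0. The value of −0.24 came from a probe set with low signals, at 3.74 to 5.49. For Prm they ran from −0.04 to 0.53 in Ac+Sens and from −0.75 to 0.08 in Ase+m3. The unused probe sets of Prm (2.85 to 4.70), kirre (3.35 to 3.94) and TpnC73F (2.58 to 3.30) also had low signals, as did a probe set of Zasp66 (2.65 to 3.10). These and that of sls were listed at 0 on replicate 3 of Sens, Ase, m3 and Ac+Sens.

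Setting Ase+m3 against its single factors gave 4 of the 6 calls of single comparisons, and all 4 were lost without 1 of the 2 Ase+m3 arrays. Ase+m3 against Ase called 3 of 29 genes, all lower (5.60% of all probe sets were called, 4.30% in the lower direction). They were htl (−0.55, 1.46-fold lower, SE 0.13, adjusted p = 0.0341), Tm2 (−1.14, 2.21-fold lower, SE 0.29, adjusted p = 0.0388) and Zasp52 (−0.64, 1.55-fold lower, SE 0.18, adjusted p = 0.0469). Ase+m3 against m3 called 1 gene, Zasp52 (−0.64, SE 0.18, adjusted p = 0.0455), where 6.56% of all probe sets were called, 4.03% in the lower direction. Zasp52 read 9.27 and 8.51 in Ase+m3, against 9.51, 9.37 and 9.69 in Ase and 9.51, 9.48 and 9.59 in m3, so both Ase+m3 arrays lay below all 6. Leaving out single arrays ended the htl call for Ase replicates 1, 2 and 3 and Ase+m3 replicate 2 (adjusted p from 0.0705 to 0.219). The Tm2 call ended for these and for GFP 1, Sens 1 and 2 and m3 1 and 2 (0.0528 to 0.254). Both Zasp52 calls ended for each array but GFP replicate 2, Ac+Sens replicate 3 and Ase+m3 replicate 1 (0.0544 to 0.396 against Ase, and 0.0524 to 0.362 against m3).

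The unadjusted p was under 0.05 for 15 of 29 genes against Ase and 13 against m3, where it was for 26.2% and 28.1% of all probe sets. The median difference of the 29 genes was −0.37 against Ase (0.01 over all probe sets) and −0.30 against m3 (0.04). Over only the probe sets above 0 on all arrays, the medians were −0.14 against Ase and −0.12 against m3. For the 25 genes among them they were −0.44 and −0.33. Adding Sens to Ac, or Ac to Sens, gave 0 calls in limma (0.0799% and 0.0533% of all probe sets were called), with 2 and 1 genes at an unadjusted p under 0.05 (9.80% and 7.93% of all probe sets). Act87E was one of them in both, at 0.29 against Ac and 0.26 against Sens.

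Between the 2 Ase+m3 arrays, replicate 2 read lower than replicate 1 for 24 of 29 genes, and by over 1 log2 unit for 11. The median difference was −0.78, against −0.02 over the 6088 genes measured on all arrays with a known length, of which 51.4% were lower. Sns read 4.51 and 6.96, bt 6.06 and 8.38, up 4.63 and 6.79, sls 7.24 and 9.36, and kirre 6.67 and 8.63 on replicates 2 and 1. Replicate 2 was the lowest of all arrays for 18 of the 29 genes. Zasp66 went the other way, at 7.65 on replicate 2, its highest array.

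The difference between these arrays was related to the span of the gene's transcription unit in the RefSeq annotation. All 10 genes of 20 kb or more were lower on replicate 2, with a median of −1.45 (−1.04 and 91.6% lower among 486 genes of that span). Of 7 genes from 5 to 20 kb, 5 were lower, with a median of −1.09 (−0.55 and 80.1% among 1374 genes). Of 12 genes under 5 kb, 9 were lower, with a median of −0.23 (0.13 and 37.4% among 4228 genes). Across genes, which are not independent replicates and share the 2 arrays, the Spearman correlation with span was −0.502 for the 29 genes and −0.642 for all. Short genes were not spared throughout, with Mlc2 at −1.71 and TpnC73F at −1.12. GFP replicate 2 and Ac+Sens replicate 3, each with 5 genes over 0.5 below their median array, also had such a correlation of their deviations with span. It was −0.468 over 25 genes and −0.449 over all on Ac+Sens replicate 3, and −0.408 and −0.601 on GFP replicate 2. Other arrays had correlations of either sign, among them −0.508 and −0.235 on Sens replicate 2. On Ase replicate 3 they were 0.482 and 0.436, and on Ac+Sens replicate 1 0.385 and 0.462. The part of this trend in the differences was not tested beyond the setting that removes it.

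**Figure D4:**
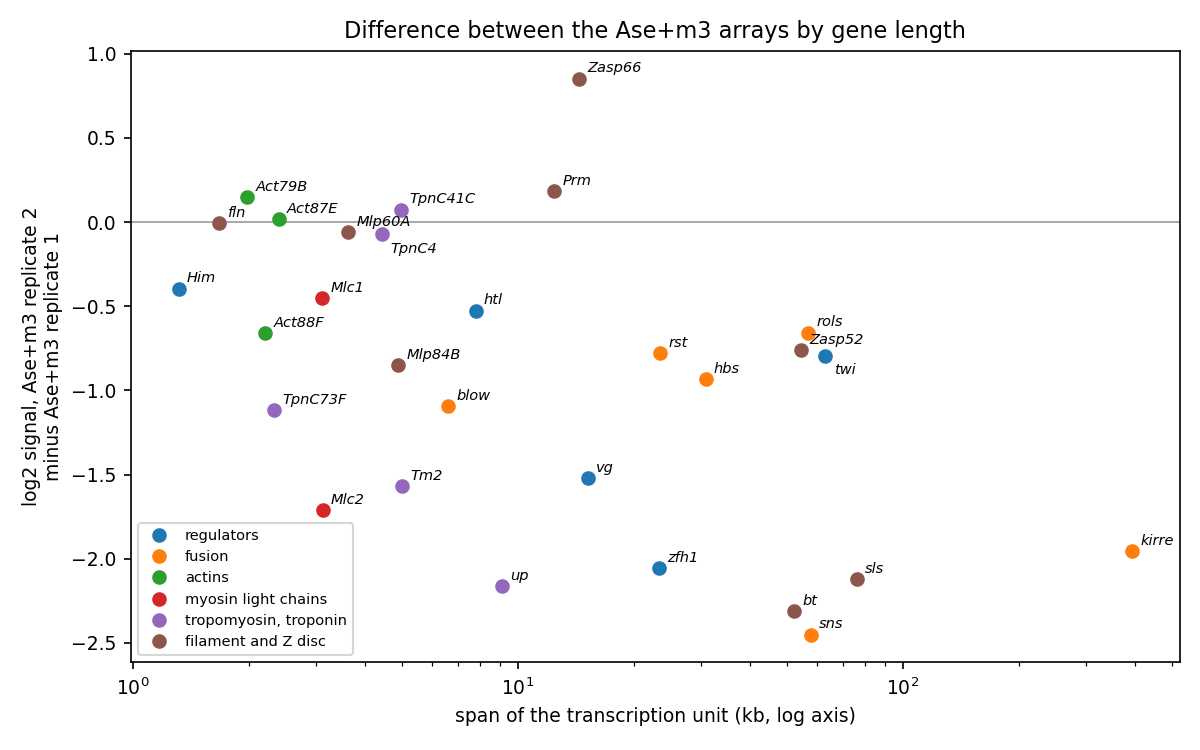
Difference in log2 signal between Ase+m3 replicate 2 and replicate 1 (vertical axis) against the span of the transcription unit in kb on a log axis (horizontal), with 1 point per gene coloured by role. Points below the line at 0 read lower on replicate 2; all 10 genes of 20 kb or more lie between −0.66 and −2.45.

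Without Ase+m3 replicate 2, the group has a lone array that is assumed to vary like the others, and none of the 29 genes was called against Ase (3.44% of all probe sets were called) or m3 (6.04%). Htl, Tm2 and Zasp52 then differed from Ase by −0.29, −0.36 and −0.26 (adjusted p = 0.219, 0.254 and 0.396). The median difference of the 29 genes from GFP in Ase+m3 turned to 0.23, with 26 of 29 above 0. Without replicate 1 in its place, 19 genes were called against Ase (18.3% of all probe sets) and 18 against m3 (17.5%).

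The pair of Ase+m3 arrays also entered the common spread estimate, and a lone Ase+m3 array adds nothing to it. Leaving out either one gave the same calls and the same adjusted p for Ase and for Ac+Sens against GFP. Ase against GFP then called 5 of 29 genes, all higher (2.67% of all probe sets). They were Tm2 (0.77, adjusted p = 0.00292), hbs (0.53, 0.00523), Act79B (0.52, 0.0151), htl (0.37, 0.0408) and kirre (0.64, 0.0470). Ac+Sens against GFP called hbs (0.48, adjusted p = 0.0155) and Act79B (0.47, 0.0374), where 1.39% of all probe sets were called. Ase+m3 against GFP called hbs (0.56, adjusted p = 0.0196) without replicate 2, where 6.80% were, and 14 genes, all lower, without replicate 1 (15.5%). With Ase+m3 replicate 2 and the array labelled Sens replicate 1 both left out, a setting chosen after the values were seen, kirre lost its call and the others kept theirs.

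Other genes of the muscle lineage were read from a second list of 45, of which 35 were measured. Several of them, salm, ct, ap, if and mys among them, are also used by the epidermis. Ced-12, an adaptor of the Rac activation that fusion needs, was higher in Ac+Sens than in GFP, with a difference of 0.37 (SE 0.07, adjusted p = 0.0171), a comparison that called 0.773% of all probe sets. No other of the 35 was called against GFP. Ase+m3 against Ase called 3, all lower (4.30% of all probe sets in that direction): salm (−0.79), the flight muscle selector, if (−0.67), an integrin subunit of the muscle attachment, and SCAR (−0.37), an activator of actin branching. Ase+m3 against m3 called salm (−0.80) and Actn (−1.06), the Z disc cross-linker alpha-actinin, both lower (4.03%). The median difference of the 35 from GFP was 0.14 in Ac, 0.19 in Sens, 0.23 in Ase, 0.18 in m3, 0.11 in Ac+Sens and −0.14 in Ase+m3. Salm read 9.42 on Ase+m3 replicate 2 and 10.24 on replicate 1, and Actn 7.88 and 9.45. Of the 35 genes, 30 were lower on replicate 2.

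Markers of other cells in a notum moved with some of these results. All 9 haemocyte markers were measured, with 4 of them (Hml, NimC1, He and eater) listed at 0 on some arrays, and their summed level over 5 genes was 9.68 to 9.85 in Ase, 9.64 to 10.46 in Ac+Sens and 9.48 to 9.53 in GFP (log2 of the sum). NimC1, not among the 5 summed genes, rose in Ase by 0.86 (adjusted p = 0.0145) and in Ac+Sens by 0.91 (0.00721). It had values on 16 arrays, at 4.87 to 6.05. Of the 9 haemocyte markers, 8 differed from GFP above 0 in Ase and 7 in Ac+Sens, the lowest differences being −0.42 and −0.19. Tendon markers, 6 of 9 measured, summed over 5 genes to 11.53 to 11.65 in Ase and 11.16 to 11.63 in GFP. Notum markers summed over 7 genes to 11.54 to 11.61 in Ase, 11.11 to 11.42 in Ase+m3 and 11.43 to 11.66 in GFP, and ara fell in Ase+m3 against GFP (−0.65, adjusted p = 0.0450), ush and eyg against m3 (−0.63 and −0.86, 0.0477 and 0.0255). The 25 muscle genes on all arrays summed to 13.87 to 13.99 in Ase, 13.25 to 13.99 in Ase+m3 and 13.59 to 13.84 in GFP. Epidermal junction markers, 4 of 5 measured, summed to 11.21 to 11.39 in Ase+m3, 11.68 to 11.80 in Ase and 11.37 to 11.70 in GFP, and crb and shg fell in Ase+m3 against Ase (−0.82 and −0.74, adjusted p = 0.0228 and 0.0352). Against m3, cora, crb and shg fell (−1.44, −0.83 and −0.65, adjusted p = 0.0401, 0.0215 and 0.0448). On Ase+m3 replicates 2 and 1, cora read 6.12 and 7.95, crb 8.76 and 9.49, and shg 6.18 and 6.92. Nrx-IV went the other way, with 10.81 and 10.63. Neuron markers, 4 of 5 measured, summed over 2 genes to 6.48 to 8.43 in Ase+m3, 8.85 to 8.98 in Ase and 8.27 to 8.80 in GFP. Only elav was called lower in Ase+m3 against Ase (−1.65, adjusted p = 0.0456), where 2 of the 4 markers had a difference above 0. It read 5.92 on Ase+m3 replicate 2 and 8.07 on replicate 1. Of 4 tracheal markers 2 were measured, 1 of them on all arrays, at 7.61 to 9.41 in Ase+m3, 9.06 to 9.44 in Ase and 8.59 to 9.11 in GFP. The other, btl, rose in Ase+m3 against GFP (0.53, adjusted p = 0.0384), with values on 15 arrays at low signals of 4.09 to 4.86. The marker on all arrays, sty, went the other way there, at −0.35. Fat body markers, 3 of 6 measured and none called, summed to 12.19 to 12.67 in Ase+m3, 11.83 to 12.64 in Ase and 11.39 to 12.29 in GFP. The part of these markers in the differences of the muscle genes was not tested.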

How the data were processed

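The 19 arrays were grouped by the transgene in their titles. The values deposited by the authors are log2 probe set signals from RMA, per the submitters' processing notes; the sources used here name no version. Zeros on 4 arrays were treated as missing. Of 18769 probe sets, 13647 name 1 gene in the platform annotation, 402 several and 4720 none. Gene spans came from RefSeq (release 6).

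Differences were fitted with limma 3.58.1 in R 4.3.3 as 7 group means in a single linear model without filter or covariate, for 10 comparisons. Tests were two-sided, with Benjamini-Hochberg adjustment over all probe sets. The model was tested on simulated data. Genes were grouped by role, and levels in every group were given for genes called, for the gene with the highest mean and the widest range of group means in each role, and for genes whose probe sets differ in sign. The values of hbs were added after they were seen. The genes, lists and comparisons were chosen with earlier results of these data known. Same-numbered arrays of different groups deviated together no more often than others. A correlation over 0.1 was found in 15 of 52 same-numbered pairs and in 31 of 102 differently numbered pairs. Deviations from a group's own mean offset one another, so this count cannot exclude a batch shared by some arrays. The zeros fell only on replicate 3 of Sens, Ase, m3 and Ac+Sens. Replicate numbers were not used as pairs in the main fit. Alternatives were another zero rule, quantile normalization, removal of the trend with gene span, averaged probe sets, array weights, the replicate number as a block and each array left out. Arrays are few, and their number limits the precision.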

Additional observations from a re-analysis of the deposited data

How the results depend on the processing

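Each of the 6 calls in the comparisons of the 29 genes lost significance in some of 26 alternatives. None changed direction, but leaving out arrays could not bring that about, as the arrays compared did not overlap for these calls. With quantile normalization the counts for Ac (0.165% of all probe sets were called), Ase (1.05%), Ase+m3 against Ase (1.74%), Ase+m3 against m3 (1.97%) and the F test were all 0. With array weights they were 2 for Sens (4.11% of all probe sets were called), 8 for Ase (14.2%), 2 for m3 (5.32%), 3 for Ac+Sens against GFP (8.39%), 1 for Ac+Sens against Ac (4.92%), 0 for Ase+m3 against Ase and against m3, and 10 for the F test. Over only probe sets above 0 on all arrays they were 1 for Ac+Sens (0.988%), 7 and 2 for Ase+m3 against Ase and m3 (20.4% and 15.9%), and 0 for the F test. Removing the trend with gene span gave 1 for Ac+Sens (0.952%) and 0 for Ase+m3 against Ase (4.15%). With the replicate block the counts were 0 for Ac (0.16%), 1 and 0 for Ase+m3 against Ase and m3 (2.7% and 2.03%), and 0 for the F test. The labels do not say whether replicate numbers pair the arrays. Leaving out each array in turn gave 0 to 1 calls for Ac, 0 to 5 for Ase, 0 for Sens, m3 and Ac+Sens against Ac and Sens, 0 to 2 for Ac+Sens, 0 to 14 for Ase+m3 against GFP, 0 to 19 against Ase, 0 to 18 against m3, and 0 to 16 for the F test. Without both the array labelled Sens replicate 1 and Ase+m3 replicate 2, a setting chosen after seeing the data, Ase+m3 again has a lone array. Apart from the settings that leave out arrays, the cause of these changes was not tested. Probe sets of dim genes have no detection call here.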
